A study of Homo sapiens with 60 samples.

Results

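Yijung-tang and Banhasasim-tang are herb mixtures of East Asian medicine, and their water extracts were set against each other here at the same high dose, 500 µg/mL, in A549 cells after 24 h. A549 is an established human line from a non-small-cell lung carcinoma. The 6 libraries compared, 3 for each mixture, were those labelled with the high dose of either extract, and the series as received held 60 libraries. The same 2 extracts were also given at 100 µg/mL (medium) and 20 µg/mL (low), with 3 libraries at each dose, and these 18 libraries carry the same set label, 7. A further 3 libraries had vehicle alone, which the sample labels give as 0.1% DMSO and the design text of the series as 2%. All these libraries share Second_BatchB in their titles, and the set label is the first part of the sample code. The vehicle libraries carry a set label of their own, B1, and a DMSO share is given for them alone. Effects of the extract, the set and the solvent therefore cannot be told apart in comparisons with vehicle. The comparison of the mixtures is within the set. The labels name the mixtures without listing their herbs and do not say whether the 3 libraries of a group came from separate cultures. The p-values therefore rest on the spread between libraries of a group, pooled over the 57 libraries fitted, and that spread may be technical.

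Yijung-tang is the Korean form of a classical formula built on ginseng, Atractylodes rhizome, ginger and licorice, and Banhasasim-tang is that of a formula built on Pinellia tuber with the bitter herbs Scutellaria and Coptis. Neither is a full list, and the formulas can share herbs, so no difference here is tied to a herb. Both are traditionally given for complaints of the stomach and gut. Several of the pathways described here are standard readouts of how an epithelial cell meets its surroundings. Growth factor receptors act through the kinase ERK, which switches on immediate-early transcription factors such as EGR1 and FOSL1 and, soon after, the phosphatases and Sprouty proteins that restrain the same pathway. In the integrated stress response, the kinases that slow translation raise the factor ATF4, which drives genes of amino acid synthesis and transfer RNA charging. A549 cells, although of lung origin, also make plasma proteins such as fibrinogen, a trait more familiar from liver cells.

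The sequences that bear on these groups were read from RefSeq promoters (GRCh38.p14), and 2 are shown because their genes belong to groups described here, the immediate-early factors and the targets of the integrated stress response. Each is the 120 bases just before the annotated start, 5′ to 3′ on the gene's own strand, with the motif searched in capitals. EGR1 is at chr5:138465359-138465478 on the plus strand, and the capitals mark its 2 CArG boxes, the element that serum response factor binds. ASNS, asparagine synthetase, is at chr7:97872409-97872528 on the minus strand, and the capitals mark TGATGNAA, a form of the element that ATF4 binds with a partner.
EGR1: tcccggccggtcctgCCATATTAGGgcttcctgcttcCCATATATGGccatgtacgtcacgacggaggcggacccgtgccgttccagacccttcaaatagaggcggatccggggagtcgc
ASNS: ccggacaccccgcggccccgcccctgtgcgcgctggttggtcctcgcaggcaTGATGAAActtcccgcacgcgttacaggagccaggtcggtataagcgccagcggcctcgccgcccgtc

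Motifs were searched on both strands over windows of 300 bases, 250 before and 50 after the start. The CArG box was in 1.29% of the 35116 promoters of the table and TGATGNAA in 3.62%. In EGR1 the CArG boxes began 105 and 83 bases before the start. The TGATGNAA of ASNS began 68 bases before it. A match is a description of the letters and not a measured site.

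Total counts ran from 17793680 to 30188212 in the 6 high-dose libraries. The shallowest and the deepest were both of Yijung-tang, replicates 3 and 2. Replicate 2 also stood apart in transcript length: the mean log2 CPM of transcripts longer than 6 kb, less that of transcripts shorter than 1.5 kb, was -0.039 there, 0.37 and 0.51 in the other Yijung-tang libraries and 0.43 to 0.55 in Banhasasim-tang. Mitochondrially encoded RNA took 9.25% ± 0.047 of counts with Yijung-tang and 8.58% ± 0.40 with Banhasasim-tang (SD, n = 3 each), with an exact two-sided permutation p of 0.1, the smallest that 3 against 3 can give. The length balance gave p = 0.3 in the same exact test. Epithelial keratins were abundant in every library, KRT8 at 2863 CPM or above and KRT18 at 2166 or above, in CPM of the library total. ALDH1A1, a known marker of the line, stood at 6072 CPM or above. CDKN2A, which A549 is known to have lost, had 3 counts in all in Yijung-tang and 0 in Banhasasim-tang. Of 16 markers of blood, endothelial, fibroblast and liver cells, 3 were high enough to be tested. The summed level of all 16 was 25.7 to 29.4 CPM with Yijung-tang and 36.3 to 38.9 CPM with Banhasasim-tang. COL1A1 made up most of it, and without COL1A1 the sums were 11.1 to 13.6 and 7.83 to 10.9 CPM. PTPRC, CD3E and HBB had 0 counts in the Yijung-tang libraries. The fibroblast genes COL1A2 and DCN had 36 and 8 counts there, all of them in replicate 2, against 2 and 0 with Banhasasim-tang. In bulk RNA fewer cells of a type and less RNA per cell cannot be told apart, and the part of other cells in the results was not tested.

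At 500 µg/mL the mixtures differed in 828 of 17269 genes tested (4.79%), at an adjusted p under 0.05 (edgeR, quasi-likelihood, Benjamini-Hochberg). Yijung-tang gave the higher level in 449 genes (2.6%) and the lower in 379 (2.19%). Differences were mostly modest, since 26 of the higher and 41 of the lower genes had a log2 fold of 1 or more in size. The 3 and 3 libraries did not overlap for 23.0% of the genes tested. Leaving out 1 of the 6 libraries gave 459 to 1037 genes. The lowest of these, 459, was without Yijung-tang replicate 2, and 507 passed without Banhasasim-tang replicate 2. Of these, 437 and 495 were among the 828. In a fit of the 6 libraries alone 354 genes passed.

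Against vehicle the extracts gave unlike numbers of genes. Yijung-tang at 500 µg/mL differed from vehicle in 1224 genes (7.09%), 649 higher (3.76%) and 575 lower (3.33%), and Banhasasim-tang in 32 (0.185%), 15 higher (0.0869%) and 17 lower (0.0984%). These comparisons share the vehicle libraries with each other and the treated libraries with the direct comparison. In fits of the libraries compared alone the counts were 622 and 144. The Yijung-tang count was 741 without Yijung-tang replicate 2 and 792 without vehicle replicate 1. The Banhasasim-tang count was 15 without vehicle replicate 1 or Banhasasim-tang replicate 3, 17 without vehicle replicate 2 or Banhasasim-tang replicate 1, and 18 without Banhasasim-tang replicate 2.

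By dose, the number of genes that differed between the mixtures was not highest at the highest dose. At 20 µg/mL edgeR called 0 genes (0.0%), with 298 at an unadjusted p under 0.05, and DESeq2 called 2. At 100 µg/mL 1223 genes differed (7.08%), 630 higher (3.65%) and 593 lower (3.43%) in Yijung-tang. This count was 797 without medium-dose Banhasasim-tang replicate 3 and 813 without medium-dose Yijung-tang replicate 1. Both lie below the 828 of the full high-dose comparison, which itself gave 459 to 1037 with 1 library left out. In fits of the compared libraries alone the counts were 848 at the medium and 354 at the high dose. Of the 828 genes at the high dose, 483 (58.33%) were also past the threshold at the medium dose, which is 39.49% of the medium-dose genes, and 482 of them had the same direction. A larger medium-dose difference of the same sign was found for 262 of the 828.

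**Figure D1:**
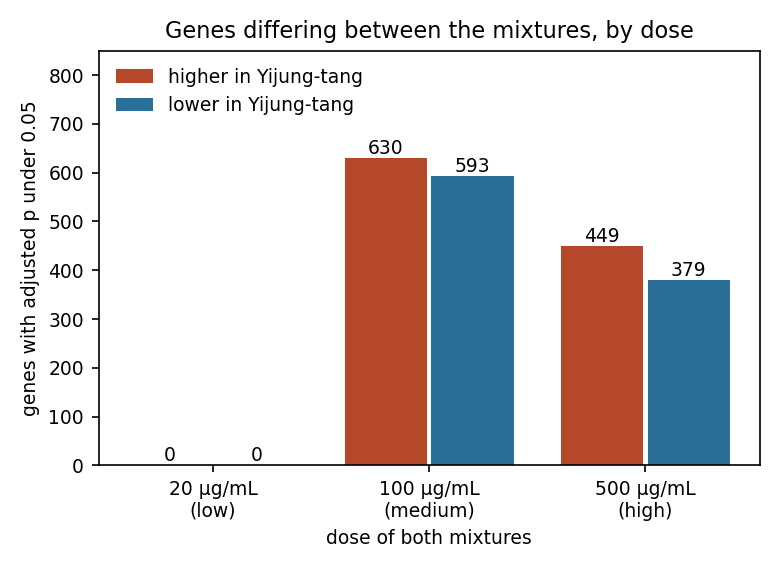
Number of genes past an adjusted p of 0.05 between Yijung-tang and Banhasasim-tang at each dose (x axis, µg/mL), as bars for genes higher and lower in Yijung-tang. The low dose has 0 in both directions, the medium dose 630 and 593, and the high dose 449 and 379.

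Among the genes with the largest differences, those higher in Yijung-tang included surface proteins and transcription factors. LY6K, a membrane-anchored protein of the Ly6 family, stood at 5.30, 7.97 and 5.21 CPM with Yijung-tang and at 1.29, 1.28 and 1.91 CPM with Banhasasim-tang (CPM after TMM scaling, here and for every gene from here on, where a value in parentheses after a gene is its log2 fold, Yijung-tang over Banhasasim-tang). Replicate 2 was the highest Yijung-tang library, and the groups did not overlap. The log2 fold was 2.04 ± 0.29 (SE, adjusted p = 1.84e-06).

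NT5E, the ecto-enzyme CD73 that makes adenosine outside the cell, measured 73.5, 73.4 and 69.7 CPM against 31.2, 31.4 and 31.3 CPM. The Banhasasim-tang libraries were nearly level with the vehicle mean of 30.5 CPM, and each Yijung-tang library lay far above (log2 fold 1.21 ± 0.08, adjusted p = 1.22e-15). NT5E lies at chr6:85449584-85495791 on the plus strand. It differed more at the high than at the medium dose, where its log2 fold was 0.57. GPRC5A, an orphan receptor of lung epithelium, measured 476, 471 and 479 CPM against 220, 228 and 224 CPM. Here the mixtures lay on either side of the vehicle mean of 286 CPM, and both differences from vehicle passed the test, at 0.73 and -0.35.

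CDCP1, a transmembrane substrate of Src kinases, reached 13.4, 11.5 and 12.2 CPM against 4.75, 5.99 and 5.30 CPM. HAS2, which makes hyaluronan, reached 10.5, 10.6 and 10.5 CPM against 5.52, 5.35 and 4.96 CPM. In both genes the groups were clear of each other, with log2 folds of 1.2 ± 0.15 and 1.00 ± 0.13. MARCHF4, a membrane ubiquitin ligase, had a log2 fold of 1.16 ± 0.10. CITED4, a co-regulator of transcription, was carried by a single library, with 16.4, 31.2 and 15.9 CPM against 9.81, 11.7 and 9.50 CPM. Its log2 fold of 1.05 ± 0.28 passed the test (adjusted p = 0.0169), but without Yijung-tang replicate 2 it was 0.64 and did not (0.392).

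On the lower side, KRT4, a keratin of stratified mucosa, measured 8.22, 7.80 and 6.42 CPM with Yijung-tang and 21.1, 18.2 and 23.2 CPM with Banhasasim-tang. All 3 Yijung-tang values were under the Banhasasim-tang range, and the vehicle mean was higher than either at 27.4 CPM (log2 fold -1.47 ± 0.14, adjusted p = 3.02e-10). CDH1, E-cadherin, the adhesion protein that holds epithelial cells together, measured 14.7, 13 and 15.0 CPM against 27.2, 27.4 and 26.9 CPM. Its Banhasasim-tang values sat close to the vehicle mean of 28.6 CPM (log2 fold -0.94 ± 0.13, adjusted p = 2.83e-06). CDH1 is at chr16:68737225-68835548.

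Transport, signalling and matrix genes were also on the lower side. SLC23A1, a vitamin C transporter, gave 2.74, 2.98 and 2.19 CPM against 5.73, 6.55 and 5.87 CPM. ARRB1, beta-arrestin 1, which uncouples receptors from G proteins, had a log2 fold of -1.02 ± 0.13. ANKS4B, a scaffold of the brush border, differed by -1.35 ± 0.14, COL4A4, a basement membrane collagen chain, by -0.99 ± 0.17 and TLCD2 by -0.91 ± 0.11. CP, ceruloplasmin, the copper-carrying oxidase of plasma, differed by -0.96 ± 0.22 (adjusted p = 0.00497), a call that was lost without Yijung-tang replicate 2 (0.0799).

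**Figure D2:**
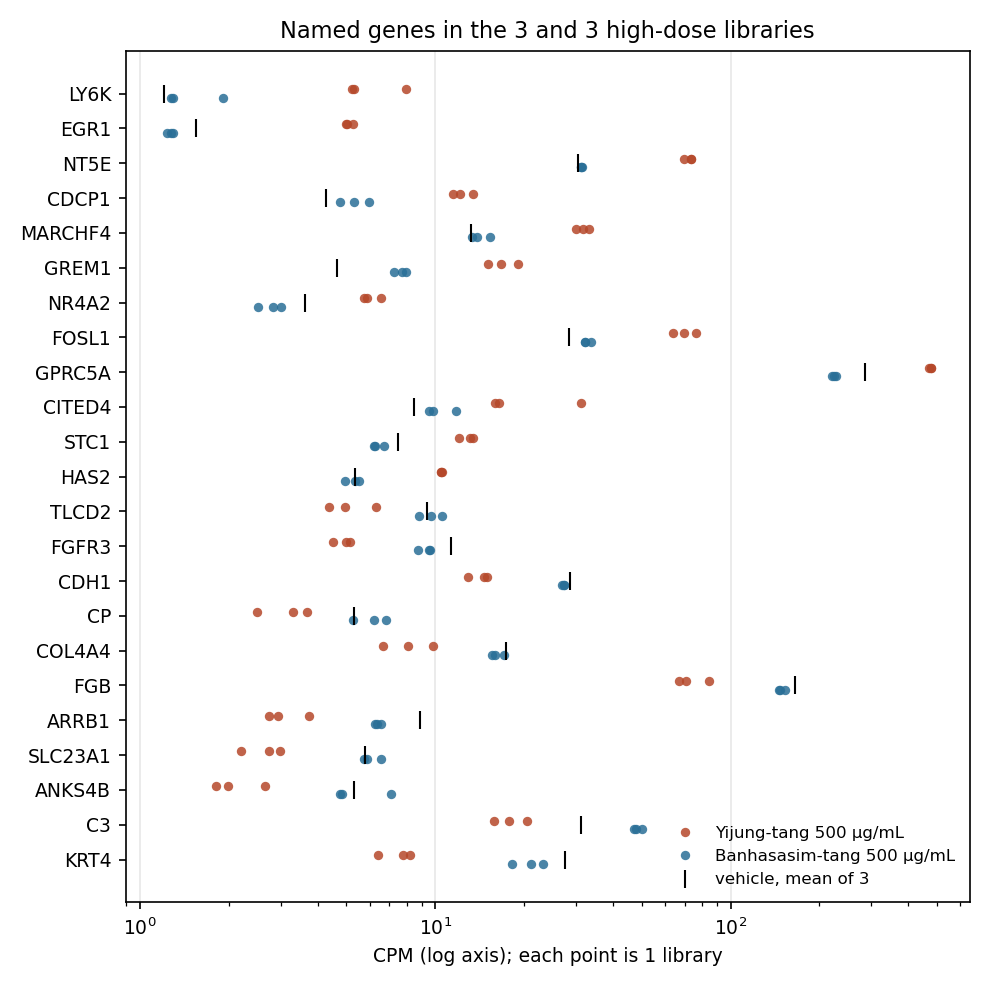
CPM (x axis, log scale) of the 12 genes most higher in Yijung-tang and 11 of the 12 most lower. The choice was among genes past the threshold with a mean of 5 CPM or more in the higher group. Each of the 3 and 3 high-dose libraries is 1 point, and a bar marks the vehicle mean. Groups do not overlap in any row, as the choice of genes required, and for CITED4 the Yijung-tang point at 31.2 CPM lies apart from 16.4 and 15.9 CPM.

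The immediate-early group, mostly transcription factors, had the most members higher in Yijung-tang: 13 of 19 tested members were higher and 0 lower. Its median log2 fold was 0.49 against 0.005 over all genes tested. With any of the 6 libraries left out 11 to 13 were higher. Beside the counts of this and each later group stand the shares over all genes tested, 2.6% higher and 2.19% lower. EGR1, a zinc-finger factor induced within minutes of a growth signal, stood at 5.03, 5.27 and 4.99 CPM with Yijung-tang and 1.24, 1.28 and 1.3 CPM with Banhasasim-tang. The groups were clear of each other (log2 fold 2.00 ± 0.19, adjusted p = 1.51e-10). Against the vehicle mean of 1.55 CPM the log2 fold was 1.71 with Yijung-tang, past the threshold, and -0.29 with Banhasasim-tang, not past it. EGR1 lies at chr5:138465490-138469315 on the plus strand, and its promoter with the 2 CArG boxes is printed above. Of the 8 higher immediate-early members with a promoter in the table EGR1 alone held a CArG box, and of 6 such ERK feedback genes 0 did, beside 1.05% of the matched promoters of genes tested. FOSB, a partner of JUN in the AP-1 factor, measured 4.13, 3.90 and 4.94 CPM against 0.93, 0.84 and 1.26 CPM. Its log2 fold was 2.08 ± 0.26 (adjusted p = 8.94e-08).

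FOSL1, another AP-1 subunit, measured 69.4, 76.7 and 63.7 CPM against 32.2, 33.7 and 32.1 CPM (log2 fold 1.10 ± 0.07). The Banhasasim-tang libraries lay above the vehicle mean of 28.4 CPM, by a log2 fold of 0.20 that did not pass the test. NR4A1, an orphan nuclear receptor, measured 45.1, 46.6 and 45.1 CPM against 24.0, 23.0 and 26 CPM. The vehicle mean of NR4A1 was 36.9 CPM, between the mixtures, and it was higher than vehicle with Yijung-tang (0.31) and lower with Banhasasim-tang (-0.60). NR4A2 differed by 1.13 ± 0.15. Smaller differences past the threshold were those of FOS (0.67), MAFF (0.58), ATF3 (0.55), IER2 (0.50), IER3 (0.49), MCL1 (0.42), JUN (0.26) and MYC (0.25). IER3 and JUN lost the call without Yijung-tang replicate 2 or Banhasasim-tang replicate 1, IER3 also without Banhasasim-tang replicate 2, and JUN also without Yijung-tang replicate 1 or Banhasasim-tang replicate 3. NR4A3 measured 5.61, 5.41 and 5.71 CPM against 5.52, 5.27 and 5.26 CPM and did not pass (log2 fold 0.06 ± 0.15). It is named after its values were seen, as the NR4A member outside the 13, and both mixtures had it below the vehicle mean of 8.33 CPM. JUNB, JUND and FOSL2 did not pass either, at -0.04, -0.09 and -0.01.

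The feedback genes of the ERK pathway differed likewise: 11 of 20 were higher and 0 lower (median 0.38), 9 to 11 with any of the 6 libraries left out. DUSP4, a nuclear phosphatase that removes phosphate from ERK, measured 241, 224 and 242 CPM against 129, 130 and 142 CPM. The groups lay far apart, and the Banhasasim-tang libraries were around the vehicle mean of 134 CPM (log2 fold 0.81 ± 0.04, adjusted p = 5.78e-18). DUSP6, its cytoplasmic counterpart, measured 20.1, 19.9 and 16.7 CPM against 10.6, 10.9 and 9.54 CPM. PHLDA1 measured 175, 203 and 198 CPM against 103, 108 and 97 CPM. SPRY2, a Sprouty inhibitor of receptor signalling, measured 10.2, 11.9 and 11.1 CPM against 6.81, 6.51 and 6.33 CPM. In each of these 3 genes the lowest Yijung-tang library was above the highest of Banhasasim-tang, with log2 folds of 0.87, 0.90 and 0.76. The ETS factors ETV4 (0.44) and ETV5 (0.29) and the receptor EPHA2 (0.50) were higher as well, while SPRY1 (0.26), SPRY4 (0.39), SPRED1 (0.08), SPRED2 (0.02) and CCND1 (0.12) did not pass. IER3 counts in both groups.

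**Figure D3:**
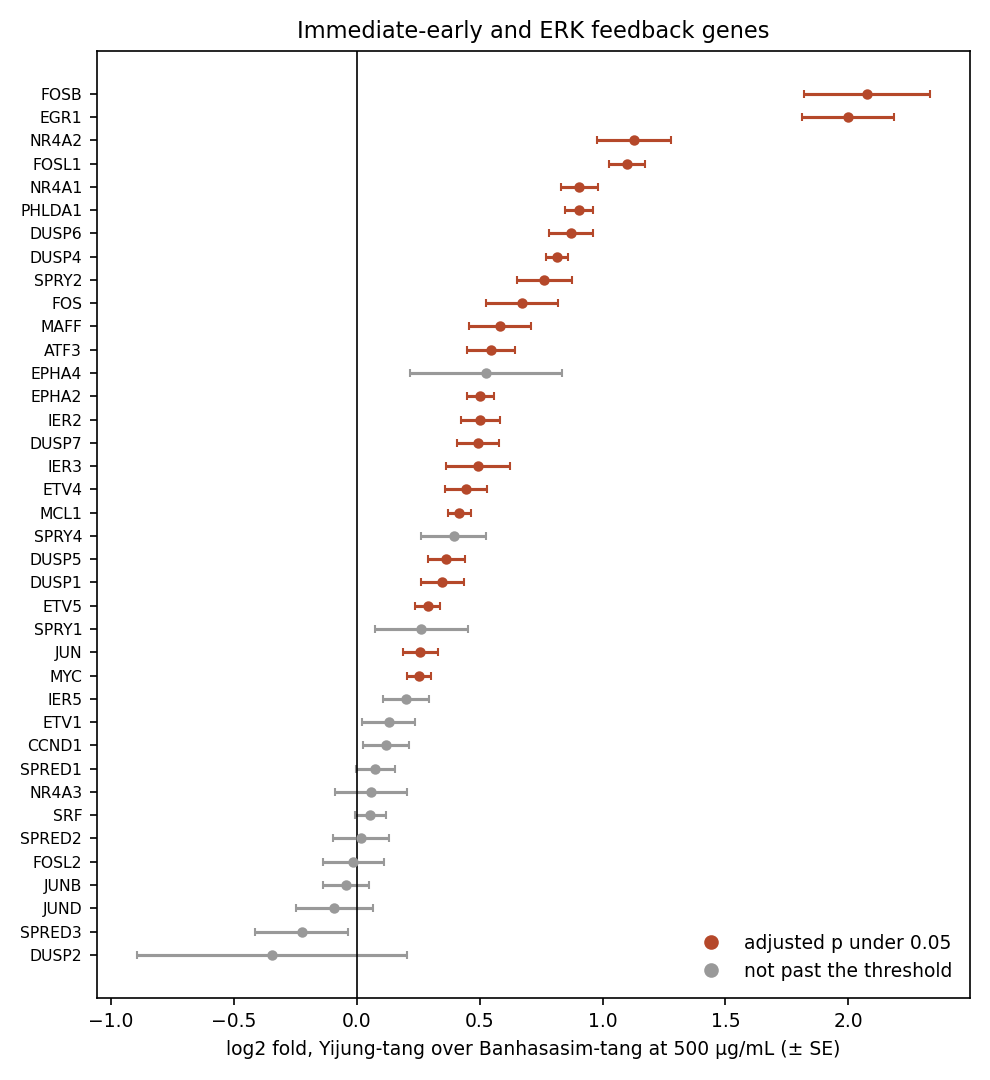
Log2 fold of Yijung-tang over Banhasasim-tang at 500 µg/mL (x axis) with its SE as a bar, for 38 immediate-early and ERK feedback genes, coloured where the adjusted p was under 0.05. FOSB and EGR1 lie at 2.08 and 2.00, and the genes at or below 0, such as JUNB at -0.04, did not pass.

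Ligands and receptors upstream of ERK went both ways, 5 of 23 higher and 5 lower (median 0.03). The EGF-receptor ligands EREG (0.39), AREG (0.43) and HBEGF (0.56) were higher in Yijung-tang, as was the receptor kinase AXL, with 290, 267 and 278 CPM against 202, 192 and 199 CPM (0.49 ± 0.05). Among the receptors themselves FGFR3 was lower, with 5.16, 4.99 and 4.5 CPM against 9.6, 9.54 and 8.77 CPM (-0.92 ± 0.11), and so were ERBB3 (-0.66), FGFR4 (-0.52) and ERBB2 (-0.33). PDGFB, a ligand, differed by -0.60. EGFR (0.19) and MET (0.20) did not pass. Without Yijung-tang replicate 2 or without Banhasasim-tang replicate 1 the higher members were 3, and AREG and HBEGF were those that lost the call. AREG also lost it without Banhasasim-tang replicate 2 or 3, and EREG without Yijung-tang replicate 3. PDGFB lost it without Yijung-tang replicate 1 or Banhasasim-tang replicate 2.

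Targets of the integrated stress response were higher with Yijung-tang in 12 of 27 tested members and lower in 0 (median 0.26). This count was 8 without Yijung-tang replicate 1 or 2, without Banhasasim-tang replicate 2, and in a fit of the 6 libraries alone. STC2, a secreted glycoprotein under ATF4 control, measured 59.1, 56.1 and 63.3 CPM against 33.1, 33.1 and 32.8 CPM (0.85 ± 0.08, adjusted p = 2.04e-10). ASNS, whose promoter is printed above, measured 175, 202 and 167 CPM against 132, 139 and 136 CPM (0.42 ± 0.07, adjusted p = 5.75e-05). PPP1R15A, a phosphatase subunit that lets translation resume, measured 49.9, 44.9 and 39.8 CPM against 29.6, 29.3 and 31.3 CPM (0.58 ± 0.07). In these 3 genes no library of one mixture reached the range of the other. CHAC1 (0.69), ATF3 (0.55), GDF15 (0.55), SESN2 (0.44), TRIB3 (0.39), SHMT2 (0.34), DDIT4 (0.29), MTHFD2 (0.29) and PSAT1 (0.26) completed the higher members. TRIB3, SHMT2 and DDIT4 lost the call without any of the 6 libraries other than Yijung-tang replicate 3, and GDF15 lost it without Yijung-tang replicate 1 or 2 (adjusted p = 0.0764 without replicate 2) or Banhasasim-tang replicate 2. ATF4 itself (0.24) and DDIT3 (0.40) did not pass. Of the 11 higher members with a promoter in the table, ASNS, ATF3 and CHAC1 held TGATGNAA. It was in 1.7% of the matched promoters of genes tested and 3.81% of those of genes higher in Yijung-tang.

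Other genes that ATF4 is known to reach, or that serve translation, were counted next. Among amino acid transporters SLC38A2 (0.42) and SLC6A9 (0.50) were higher, 2 of 12 tested. Among cytosolic aminoacyl-tRNA synthetases 5 of 20 were higher and 0 lower, GARS1, MARS1, CARS1, YARS1 and FARSB, at 0.23 to 0.29. This count was 3 without Yijung-tang replicate 2 or without Banhasasim-tang replicate 1 or 2, and 11 without Yijung-tang replicate 3, and it was 0 in a fit of the 6 libraries alone. Ribosome biogenesis factors had 5 of 35 higher, among them DKC1 (0.21) and UTP4 (0.26), but 0 without Yijung-tang replicate 2 and 2 and 3 without Banhasasim-tang replicates 2 and 1. The medians of 76 cytosolic ribosomal protein genes and 36 genes of mitosis were 0.19 and 0.018, with 0 of either past the threshold in edgeR's test.

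Plasma protein genes of the acute phase, coagulation and complement were lower in Yijung-tang in 9 of 18 tested members and higher in 2 (median -0.48). These counts were 9 and 2 with any of the 6 libraries left out. The fibrinogen chains were all lower. FGB, the beta chain, measured 70.6, 84.4 and 67.1 CPM with Yijung-tang and 153, 147 and 146 CPM with Banhasasim-tang (-1.01 ± 0.07, adjusted p = 1.58e-15). FGA, the alpha chain, measured 84.4, 85.8 and 71.4 CPM against 130, 130 and 130 CPM (-0.69 ± 0.07), and FGG 43.1, 48.2 and 37.7 CPM against 82.4, 74.5 and 76.1 CPM (-0.85 ± 0.09). In each chain every Yijung-tang library was below every Banhasasim-tang library, and the vehicle means of FGB, FGA and FGG were 165, 147 and 82.3 CPM. FGB and FGG lie close together, at chr4:154562956-154571086 and chr4:154604134-154612967.

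Among complement genes C3, the central component, measured 20.5, 15.8 and 17.7 CPM against 47.8, 47.2 and 50.1 CPM, with the vehicle mean between them at 31.1 CPM. It was lower than vehicle with Yijung-tang (-0.79) and higher with Banhasasim-tang (0.64), and the direct log2 fold was -1.43 ± 0.15 (adjusted p = 1.12e-09). C3 is at chr19:6677704-6730562 on the minus strand. CFB, a protease of the alternative pathway, was scarce, at 0.54, 0.27 and 0.33 CPM against 1.19, 1.08 and 1.79 CPM (-1.85 ± 0.33). C1S (-0.58), C1R (-0.57) and the siderophore-binding LCN2 (-1.59) were lower too. The 2 higher members were CD55 and CD59, which protect the cell's own membrane from complement, at 44.2, 45.8 and 45.3 CPM against 31.8, 31.5 and 31.3 CPM for CD55 and 224, 263 and 213 CPM against 154, 149 and 157 CPM for CD59.

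HNF4A, a nuclear receptor that governs liver-type genes, is named after its values were seen. It measured 59.0, 48.4 and 54.4 CPM against 95.4, 93.2 and 98.4 CPM (-0.83 ± 0.07, adjusted p = 5.38e-11), with a vehicle mean of 109.5 CPM.

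Cholesterol genes, most of them under the factor SREBP2, were lower in Yijung-tang in 9 of 24 members and higher in 0 (median -0.18), 7 or 8 with any of the 6 libraries left out. In a fit of the 6 libraries alone 6 were lower. Among the 9 were LSS (-0.49), STARD4 (-0.45), HMGCS1 (-0.41), INSIG1 (-0.36), SREBF2 (-0.30), IDI1 (-0.28) and DHCR7 (-0.20). DHCR7 lost the call without Yijung-tang replicate 3 or any 1 Banhasasim-tang library. IDI1 lost it without Yijung-tang replicate 1 or Banhasasim-tang replicate 2, and STARD4 without Yijung-tang replicate 2. LSS, HMGCS1, IDI1 and DHCR7 are enzymes of the synthesis, STARD4 carries cholesterol between membranes, INSIG1 holds the SREBP factors back and SREBF2 encodes SREBP2. Fatty acid genes had 5 of 15 lower, SCD, FADS1, FADS2, ME1 and LPIN1, but 1 or 2 without any of the 6 libraries other than Yijung-tang replicate 3. Chaperones of the endoplasmic reticulum had 4 of 23 lower, HSP90B1, HSPA5, PDIA4 and HYOU1, at -0.19 to -0.29, 2 without Banhasasim-tang replicate 3 and 0 in a fit of the 6 libraries alone.

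Secreted regulators were higher in 7 of 17 members and lower in 1. GREM1, an antagonist of bone morphogenetic proteins, measured 16.7, 15.1 and 19 CPM against 7.28, 7.95 and 7.74 CPM. Both mixtures had it above the vehicle mean of 4.66 CPM, and the difference between them was 1.14 ± 0.11. STC1, a stanniocalcin, measured 13.4, 12 and 13.2 CPM against 6.25, 6.71 and 6.22 CPM (1.01 ± 0.12). DKK1, a Wnt inhibitor, measured 169, 194 and 162 CPM against 106, 105 and 106 CPM (0.73 ± 0.10). FST, follistatin, which binds activin, differed by 0.82 ± 0.15 and SFRP1, another Wnt antagonist, by 0.48. INHBB, an activin subunit, was the lower member at -0.25. GDF15 and STC2 also count in other groups.

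Adhesion and matrix genes passed the threshold in both directions. Of 33 integrins, laminins and collagens 4 were higher and 4 lower (median -0.12). The log2 fold was negative in 23 of the 33 and positive in 10. At the medium dose 3 were higher and 10 lower. COL4A4, lower as given above, is outside this list. ITGB4, of the hemidesmosome, measured 50.9, 43.9 and 45.4 CPM against 27.3, 22.8 and 23.7 CPM (0.93 ± 0.11). ITGA3 (0.67) and ITGB5 (0.30) were higher too. COL1A1 measured 16.2, 14.1 and 15.3 CPM against 27.2, 27.3 and 27.3 CPM (-0.84 ± 0.08). ITGA1 (-0.69), ITGB6 (-0.49) and COL7A1 (-0.49) were lower too. The lower members numbered 1 without Yijung-tang replicate 2 and 2 without Yijung-tang replicate 1 or Banhasasim-tang replicate 2. Among genes of epithelial and mesenchymal state CLDN1 was higher (0.24, not without Banhasasim-tang replicate 3), and CDH1, SNAI1 (-0.48) and SPARC (-0.42) were lower. SNAI1 is known as a repressor of CDH1, and VIM (0.20), ZEB1 (0.02) and CDH2 (-0.10) did not pass.

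**Figure D4:**
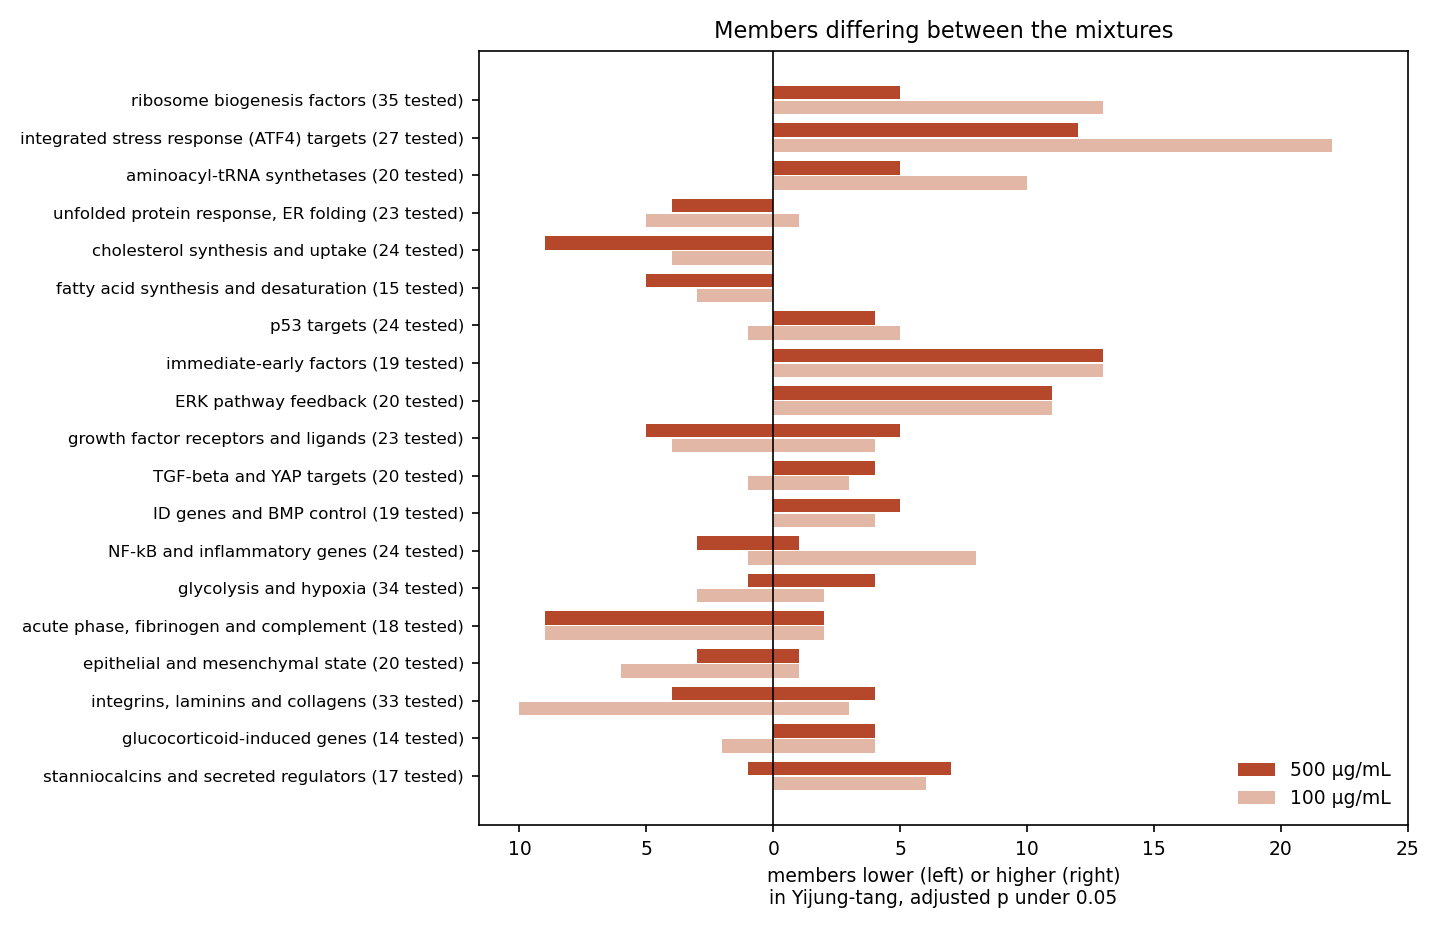
Members of each group past an adjusted p of 0.05 between the mixtures, counted to the right where higher and to the left where lower in Yijung-tang, at 500 µg/mL (dark) and 100 µg/mL (light), with the number tested beside each name. Immediate-early factors have 13 higher at both doses, stress-response targets 12 and 22, and plasma protein genes 9 lower at both.

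Inflammatory genes did not follow a common direction: 1 of 24 was higher and 3 were lower. CXCL1, a chemokine for neutrophils, measured 1.84, 1.81 and 2.03 CPM with Yijung-tang and 5.27, 4.75 and 4.88 CPM with Banhasasim-tang, both above the vehicle mean of 0.96 CPM (-1.39 ± 0.21, adjusted p = 1.09e-05). At the medium dose CXCL1 did not pass (-0.08). SOD2 (-0.26) and NFKBIZ (-0.53) were lower and NFKB2 (0.27) was higher, the latter not without Yijung-tang replicate 1 or 2. CTSL, a lysosomal protease, measured 372, 388 and 366 CPM against 200, 204 and 212 CPM (0.87 ± 0.08). The AhR group had TIPARP (0.54) and ALDH3A1 (0.57) higher, 2 of 7, and of 30 NRF2 targets 1 was lower and 0 higher. That NRF2 call was lost without any of the 6 libraries other than Yijung-tang replicate 3. The 1 of 30 lower and the 1 of 24 inflammatory genes higher are near the 2.19% lower and 2.6% higher over all genes tested.

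The difference between the doses was tested directly. For 226 genes (1.31%) the change from low to high dose differed between the mixtures. It was in the direction of Yijung-tang in 143 (0.828% of genes tested) and against it in 83 (0.481%). Of the 226 genes, 224 were among the 828. This test shares the high-dose libraries with the direct comparison, and edgeR called 0 genes at the low dose. The overlap of 224 is therefore no independent support for the 828. DUSP4 had a difference of changes of 0.84 ± 0.06 (adjusted p = 5.3e-13), and at the low dose its means were 132 ± 1.4 and 135 ± 2.1 CPM (SD, n = 3 each). FGB gave -0.99 ± 0.09 (adjusted p = 2.8e-10), from low-dose means of 171 ± 7.1 and 173 ± 12 CPM. HNF4A gave -0.83 ± 0.10, from 107 ± 5.4 and 107 ± 4.0 CPM.

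From the medium to the high dose the difference between the mixtures shifted in 41 genes (0.237%), 14 toward Yijung-tang (0.0811%) and 27 away from it (0.156%), a test added after the data had been seen. Leaving out 1 of the 12 libraries gave 14 to 38 genes, 14 and 16 without medium-dose Banhasasim-tang replicates 3 and 2, 23 without its high-dose replicate 3, and 27 without high-dose Yijung-tang replicate 1 or 2, medium-dose Yijung-tang replicate 1 or 2 or high-dose Banhasasim-tang replicate 2. A fit of the 12 libraries alone gave 10. Of the stress-response targets 7 of 27 shifted downward and 0 upward, 4 without medium-dose Banhasasim-tang replicate 3 and 3 in the 12 libraries alone. STC2 had 86.2 ± 2.9 CPM with Yijung-tang at 100 µg/mL and 59.5 ± 3.6 CPM at 500 µg/mL, while Banhasasim-tang had 29.4 ± 1.7 and 33.0 ± 0.17 CPM (shift -0.70, adjusted p = 7.0e-04). ASNS had 224 ± 23 and 181 ± 18 CPM with Yijung-tang and 124 ± 1.4 and 136 ± 3.3 CPM with Banhasasim-tang (-0.44, adjusted p = 0.034). The shift of STC2 passed with any of the 12 libraries left out, and that of ASNS was lost in 9 of the 12 cases. Stress-response targets past the threshold between the mixtures numbered 22 of 27 at the medium dose, with a median log2 fold of 0.65.

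NR4A1 was also highest at the medium dose, at 86.7 ± 0.76 CPM with the medium and 45.6 ± 0.84 CPM with the high dose of Yijung-tang (shift -0.51, adjusted p = 0.013). FOSB went from 13.4 ± 2.5 to 4.32 ± 0.55 CPM (shift -1.70, adjusted p = 0.022). FOS (-0.90) and ATF3 (-0.86) were the other immediate-early factors that shifted, 4 of 19. ATF3 passed with any of the 12 libraries left out, while NR4A1 was lost in 2 cases, FOSB in 6 and FOS in 9, and without medium-dose Banhasasim-tang replicate 3 the count was 1. EGR1, at 7.91 ± 1.55 and 5.10 ± 0.15 CPM, did not pass (-0.70, adjusted p = 0.68), and 0 of 20 ERK feedback genes did.

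Shifts in the opposite sense widened the gap at the high dose. NT5E had 43.5 ± 1.6 CPM with the medium and 72.2 ± 2.2 CPM with the high dose of Yijung-tang (shift 0.64, adjusted p = 0.0014). Of the cholesterol genes 3 of 24 were further below Banhasasim-tang at the high dose, among them HMGCS1 (-0.43) and INSIG1 (-0.36). That count was 0 to 2 with 1 of the 12 libraries left out and 0 in the 12 libraries alone. HMGCS1 and INSIG1 had log2 folds of 0.02 and -0.01 at the medium dose. SOD2 turned from 0.18 to -0.26 (shift -0.44, adjusted p = 2.0e-04). NT5E and SOD2 passed with any of the 12 libraries left out.

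**Figure D5:**
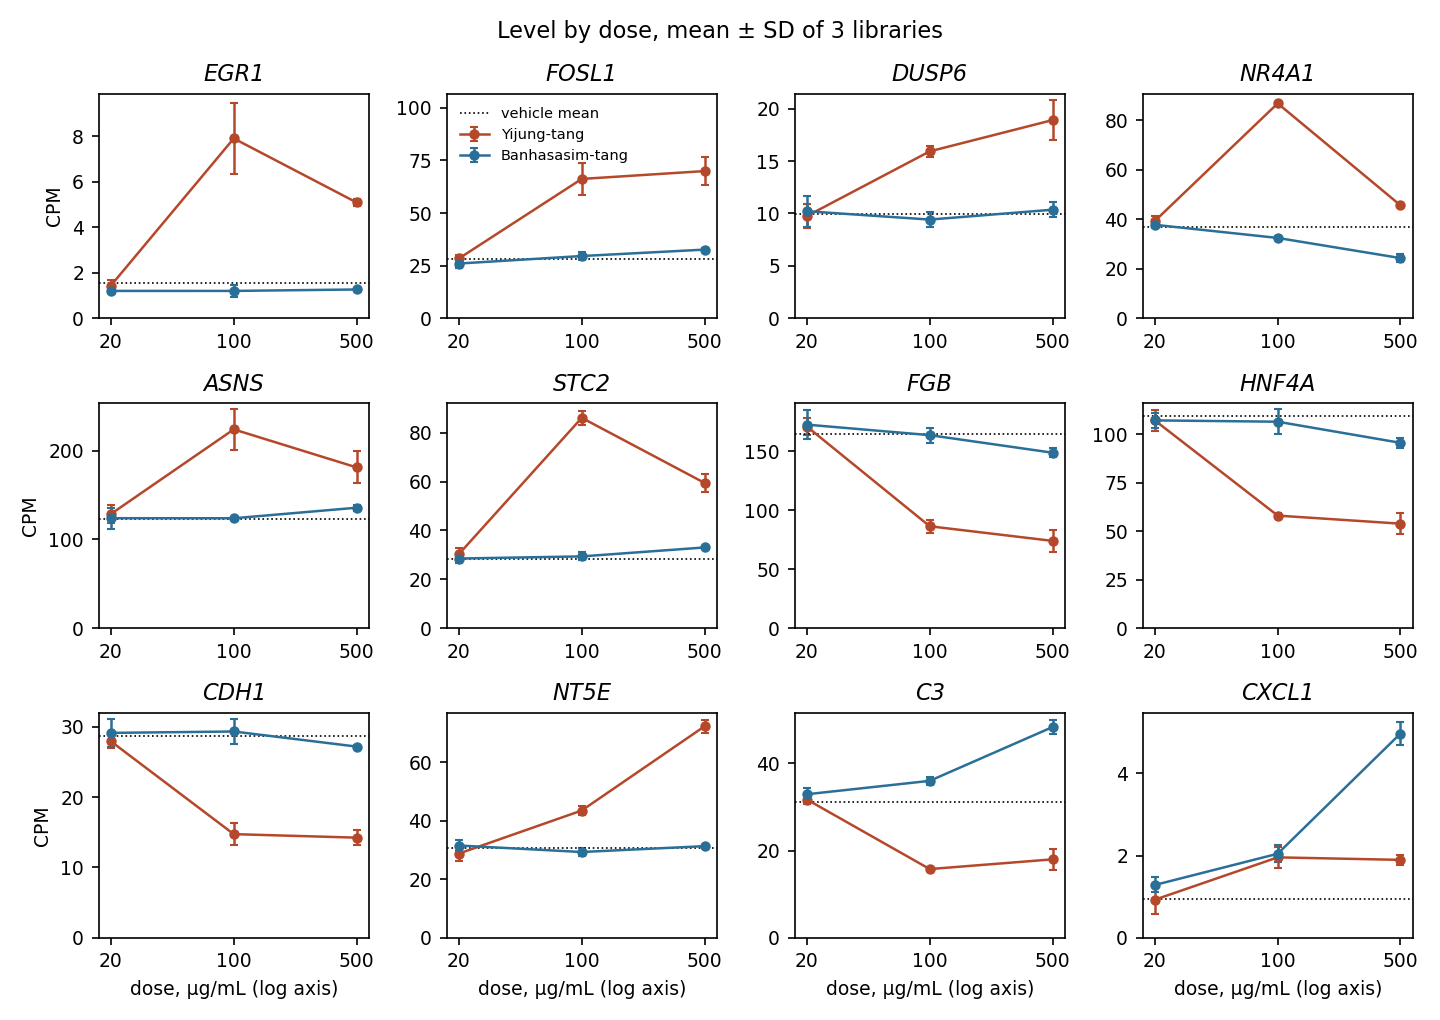
Mean CPM with SD of 3 libraries (y axis, from 0) at 20, 100 and 500 µg/mL (x axis, log scale) of Yijung-tang and Banhasasim-tang for 12 genes, with the vehicle mean as a dotted line. With Yijung-tang STC2 and NR4A1 are highest at 100 µg/mL, FGB, HNF4A and CDH1 are low at both upper doses, and with Banhasasim-tang CXCL1 and C3 are highest at 500 µg/mL.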

How the data were processed

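RNA of A549 cells was sequenced as 100 bp paired-end reads from directional messenger RNA libraries, per the labels' protocols. Per the submitters' processing notes, the tools were RSEM 1.3.3, STAR 2.7.3a, Trim Galore 0.6.5 and FastQC 0.11.9, and the build was GRCh38. Which annotation release and strand setting served for counting is not given in the sources used here, so overlapping and antisense genes are uncertain. The deposited table holds expected counts per gene from RSEM, not normalized. Of its columns 60 matched a sample by label, and 209 columns of other samples were left aside. Expected counts were rounded to whole numbers.

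An edgeR 4.0.16 quasi-likelihood model (R 4.3.3) with TMM scaling and the low-count filter by group was fitted to 57 libraries in 19 groups (Bojungikgi-tang, with 1 library per dose, stayed out), keeping 17269 genes, with 38 residual degrees of freedom and a biological coefficient of variation of 10.1%. Adjustment was by Benjamini-Hochberg over all genes of each comparison (threshold 0.05). The SE of a log2 fold is its size over the square root of F. Gene symbols and coordinates are from GENCODE 29. Replicates differed by more than sampling noise in each pair of the 6 libraries' groups. Chi-square per degree of freedom was 19.9 to 34.1 between the Yijung-tang libraries and 3.79 to 6.30 between those of Banhasasim-tang. Depth was 17793680 to 30188212 counts, so genes near 1 CPM rest on few reads.

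Named genes were the 12 largest log2 folds in each direction past the threshold (no overlap, and 5 CPM or more on the higher side), fewer for other contrasts, and up to 4 members of each of 43 gene lists. Other list members are given by value where a group is described. Some genes are not reported here, though they stay in the counts of their lists. Members and lists were chosen with earlier results of these data known. Alternatives were RLE scaling, DESeq2 1.42.0, no filter, the 6 libraries alone, a replicate block, the length balance as covariate, removal of mitochondrial genes, a fit without a Citri library that stands apart, and leaving out each library. Scripts were tested on simulated data.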

Additional observations from a re-analysis of the deposited data

Results flagged for a closer look

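The change from low to high dose differed between the mixtures in 226 genes by edgeR's test of the difference itself. Toward Yijung-tang the largest differences of the log2 changes were those of LY6K (2.19), EGR1 (1.75), NT5E (1.34), NR4A2 (1.28), CDCP1 (1.23) and GREM1 (1.12). In the opposite direction they were those of KRT4 (-1.41), C3 (-1.37), ANKS4B (-1.33), SLC23A1 (-1.18), CYP4F12 (-1.13), a fatty acid hydroxylase, and DDC (-0.995), which makes dopamine and serotonin. Both extracts, doses and all 12 libraries of this test carry the same set label.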

How the results depend on the processing

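The counts of genes rest on the fit. Without the low-count filter 488 genes differed between the mixtures at the high dose, 780 at the medium dose, 146 in the change from low to high, 10 in the change from medium to high, and 18 between Banhasasim-tang and vehicle. With the compared libraries alone the counts were 354 at the high dose, 848 at the medium dose, and 141 and 10 in the changes. Against vehicle they were 622 for Yijung-tang and 144 for Banhasasim-tang. With the length balance as covariate they were 1846, 2895, 623, 183, 2749 and 191 in the order high, medium, low-to-high, medium-to-high, Yijung-tang and Banhasasim-tang against vehicle. Without Citri medium replicate 1 the shared fit gave 67 for medium-to-high and 55 for Banhasasim-tang against vehicle. DESeq2 gave 2 at the low dose and 56 for Banhasasim-tang against vehicle. Leaving out 1 library gave 459 to 1037 at the high dose, 797 to 1278 at the medium dose, 0 each time at the low dose, 175 to 234 and 14 to 38 for the changes, 741 to 1402 and 15 to 25 against vehicle, a mitochondrial share difference of 0.48 to 0.88 percentage points and a length balance difference of -0.33 to -0.057. The causes were not tested. Most of the 137 named genes were picked because they passed the threshold in these libraries, so a stable sign is no support for them. None of the 137 changed sign under these alternatives. Without Yijung-tang replicate 2, 34 lost the call, in the 6 libraries alone 46, and with the replicate block in those libraries 62. Depth limits genes near 1 CPM.

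The replicate numbers share no stated source. Deviations of same-numbered libraries of the mixtures correlated across genes at 0.132, -0.0415 and -0.0061, and replicate 1 alone matched best with its own number. With the replicate block the high-dose count was 900. With the block and the compared libraries alone it was 216 at the high dose, 8 at the low dose, and 128 and 6 in the changes. A call lost under the block is no sign of a weaker effect.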

Other observations

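Genes in the following 2 groups were picked after their values were seen, so their directions are a description and no group test is given. Plasma proteins and enzymes typical of liver cells, outside the lists, were lower with Yijung-tang than with Banhasasim-tang at 500 µg/mL. CYP4F3, a fatty acid hydroxylase, measured 19.5, 18.6 and 21.7 CPM against 37.5, 38.9 and 35.0 CPM (log2 fold -0.90 ± 0.09, edgeR adjusted p = 9.68e-10). VTN, vitronectin, measured 11.5, 11.7 and 10.2 CPM against 16.6, 15.1 and 16.9 CPM (-0.53 ± 0.13, adjusted p = 0.00802). F2, prothrombin, at -0.56 ± 0.15, and A1CF, an RNA-editing cofactor of liver and gut, at -1.34 ± 0.29, were lower too. The call of F2 was lost without Yijung-tang replicate 1 or 3, without Banhasasim-tang replicate 3 and in the 6 libraries alone. PROC, ASGR1, LBP and SERPINA6 lay at 1.70 CPM or below and each lost its call without Banhasasim-tang replicate 1.

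The second group, of the plasminogen system, the cell surface and chromatin, was picked from genes that were higher. PLAU, the urokinase protease, measured 82.7, 95.0 and 76.7 CPM against 49.1, 53 and 56.4 CPM (0.68 ± 0.06, adjusted p = 1.78e-11). PLAUR, its receptor, measured 26.2, 29.6 and 23.2 CPM against 15.0, 15.4 and 14.9 CPM (0.81 ± 0.12). The protease inhibitor SERPINE2 (0.48), the hyaluronan receptor CD44 (0.53), the protease-activated receptor F2RL1 (0.77), thrombomodulin, THBD (0.38), the checkpoint ligand CD274 (0.75) and the chromatin proteins HMGA1 (0.57) and HMGA2 (0.44) were higher as well. Each of these 9 genes had the Banhasasim-tang libraries below every Yijung-tang library, and groups without overlap in either direction were found for 23.0% of the genes tested.

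Genes that differed between Banhasasim-tang at 500 µg/mL and vehicle included CXCL2 (1.11), CXCL8 (2.19), IL32 (0.85), CCL2 (0.72), TNFAIP3 (0.56) and CYP1B1 (0.68). Vehicle and extract carry different set labels, and a DMSO share is given for vehicle alone. Effects of the extract, the set and the solvent therefore cannot be told apart. The 32 genes of this comparison became 15 to 25 with 1 library left out. Yijung-tang gave CXCL8 2.69, CXCL2 0.88 and CYP1B1 0.55 against the same vehicle libraries. Between the mixtures IL32 differed, with 3.68, 5.10 and 3.57 CPM against 6.56, 6.99 and 8.47 CPM (-0.82 ± 0.16, adjusted p = 6.33e-04), and CYP1B1, CXCL2, CXCL8, CCL2 and TNFAIP3 did not pass.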
